A study of Mus musculus with 51 samples.

Results

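CD8+ T cells carrying both CD103 and CD69 on their surface were sorted from AT3-OVA mouse mammary tumors that had grown for 2, 4 or 6 weeks, and their transcripts were compared between the oldest and the youngest of these tumors. The libraries were chosen by their labels: 4 libraries of week 2, 3 of week 4 and 3 of week 6, which makes 10 of the 51 samples of the series and 10 of the 43 untreated ones. AT3 is a mammary carcinoma line from mice carrying the polyoma middle T oncogene in the mammary gland, and AT3-OVA also makes ovalbumin as a model antigen. All 10 libraries came from mammary tumors of this line with treatment given as none. The mouse strain, sex and age are not stated in the labels. The labels do not say whether a replicate was a single mouse or a pool, so p-values measure only the spread between libraries left in the deposited values. That spread was estimated over all 43 untreated libraries, spleen and other sorted subsets included, and not from these 10 alone. The deposited values lack some directions of variation between libraries. Close values within a group therefore cannot be read as a small spread between the samples themselves. Libraries were made from the 3' ends of transcripts, and the deposited values are normalized. They are read here as log2, which is an assumption, and differences are given on that scale. Gene means ran from -28.04 to 39.37. A gene's level does not rank its abundance against other genes (the mean of Gapdh was 4.50 and that of Foxp3 was 23.7). Read depth behind each value is unknown.

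CD103, the integrin alpha chain encoded by Itgae, binds E-cadherin, and CD69 opposes the receptor S1PR1 that lets T cells leave a tissue. Cells with both are the usual definition of tissue-resident memory CD8 T cells, which in tumors often carry PD-1, encoded by Pdcd1, and the chemokine receptor CXCR6. T cells that meet antigen for long periods can become exhausted, a state marked by inhibitory receptors and the transcription factor TOX. Activated T cells take up glucose and run glycolysis, and their lysosomes digest protein, sugar chains and lipids.

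The genes higher at week 6 included some that encode lysosomal proteins, a cholesterol exporter and glycolytic enzymes, and the promoters of 4 of them are printed because they hold motifs known from such genes; neither motif was found in the windows of Cd68, Ctsc, Man2b1 or Eno1. CACGTG is the E-box core bound by MYC and by TFEB, a regulator of lysosomal genes, and ACGTG is the core of one form of the site bound by the hypoxia factor HIF; the shorter motif lies within the longer. Each stretch runs 5' to 3' on the gene's strand over the 250 bases before a RefSeq start site (GRCm38.p6), with capitals marking CACGTG, or ACGTG read on the opposite strand as CACGT. Abca1 lies at chr4:53159896-53160145 (minus strand), Ctsd at chr7:142387828-142388077 (minus), the second of 3 listed Aldoa windows at chr7:126799255-126799504 (minus) and the second of 2 listed Pkm windows at chr9:59656977-59657226 (plus).
Abca1: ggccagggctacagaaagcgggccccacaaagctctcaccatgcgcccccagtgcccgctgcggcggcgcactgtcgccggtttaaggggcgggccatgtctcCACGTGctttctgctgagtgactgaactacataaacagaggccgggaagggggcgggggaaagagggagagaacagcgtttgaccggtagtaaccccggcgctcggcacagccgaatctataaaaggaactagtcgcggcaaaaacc
Ctsd: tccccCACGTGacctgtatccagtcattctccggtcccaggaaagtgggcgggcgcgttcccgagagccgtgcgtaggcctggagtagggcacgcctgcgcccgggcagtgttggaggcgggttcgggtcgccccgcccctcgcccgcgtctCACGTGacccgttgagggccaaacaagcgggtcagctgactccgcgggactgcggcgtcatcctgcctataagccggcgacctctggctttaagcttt
Aldoa: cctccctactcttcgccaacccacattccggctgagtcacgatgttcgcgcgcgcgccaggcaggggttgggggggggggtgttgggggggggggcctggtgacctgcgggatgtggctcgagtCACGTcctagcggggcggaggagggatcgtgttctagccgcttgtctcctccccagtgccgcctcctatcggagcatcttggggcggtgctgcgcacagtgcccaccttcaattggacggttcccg
Pkm: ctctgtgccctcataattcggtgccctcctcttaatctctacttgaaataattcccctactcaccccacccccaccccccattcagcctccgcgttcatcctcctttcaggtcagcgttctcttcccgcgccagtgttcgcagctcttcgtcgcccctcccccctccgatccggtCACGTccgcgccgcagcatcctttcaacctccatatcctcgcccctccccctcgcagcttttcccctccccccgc
Over both strands, CACGTG was found in 4 of the 21 genes called different between weeks 6 and 2 that matched the promoter table (Abca1, Ctsd, Prkcd and Prrc2c), in 10.3% of the 7684 matched genes of the expression table and in 6.02% of all 32851 promoters. The shorter ACGTG was found in 6 of the 21, in 26% of the matched genes and in 16.6% of all promoters. ACGTG or the related GCGTG was found in 13 of the 21, in 63.1% of the matched genes and in 38.6% of all promoters. Every listed Eno1 window and the Ctsc window held GCGTG without ACGTG. These matches describe letters only.

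Between week 2 and week 6, CD103+CD69+ libraries rose in the cholesterol exporter gene Abca1 and in the lysosomal genes Cd68, Ctsd, Ctsc and Man2b1. They also rose in 3 glycolytic enzymes, and fell in Foxp3, Nt5e and Ifitm1. Some lists of non-T cell markers, the myeloid list among them, also had medians above that of all genes, and their part was not tested. In all, 26 of 10560 genes were called (limma, Benjamini-Hochberg adjusted p below 0.05), which is 0.246% of those tested: 21 were higher at week 6 (0.199%) and 5 lower (0.0473%). The values of the 2 weeks did not overlap for any of the 26. The 26 were called from these same values, so this gives no separate support. Of all genes, 16.8% did not overlap with week 6 higher and 9.6% with week 6 lower. The labels' library codes were divided here into runs, and 3 of these runs hold both a week 2 and a week 6 library. Values within a run are therefore given for some genes and lists below. The division was a choice and is not in the labels, since the codes of 2 of the runs nearly follow on from each other. The labels do not say what a run of codes is.

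The number of calls rested on single libraries and on how the spread was estimated. It was 0 without week 6 replicate 2 (1050 genes at an unadjusted p under 0.05), 3 without week 6 replicate 1, 7 without week 6 replicate 3, 5 without week 2 replicate 1 and 10 without week 2 replicate 2. Because the deposited values lack some directions of variation between libraries, the test used reduced degrees of freedom; without that reduction 739 genes were called, and with it in a fit of the 10 CD103+CD69+ libraries alone, 0 (limma; 1699 at an unadjusted p under 0.05). Quantile normalization, with the reduced degrees of freedom kept, gave 19 higher and 33 lower genes and shared 23 with the 26, and median rescaling gave 45 higher and 40 lower, so the balance between rises and falls changed with the scaling. All 26 lost their call without week 6 replicate 2. Of the 7 fits that each left out a library, Abca1 kept its call in 6, Wtip, Hirip3 and BX537302.1 in 5, Eno1, Gsn, Scin, Slc16a5 and Nt5e in 3, Cd68 and Aldoa in 2, Prkcd and Prrc2c in 0, and the other genes named below as called in this comparison in 1. The median difference of all genes was 0.06, and -0.0386 after quantile normalization.

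**Figure D1:**
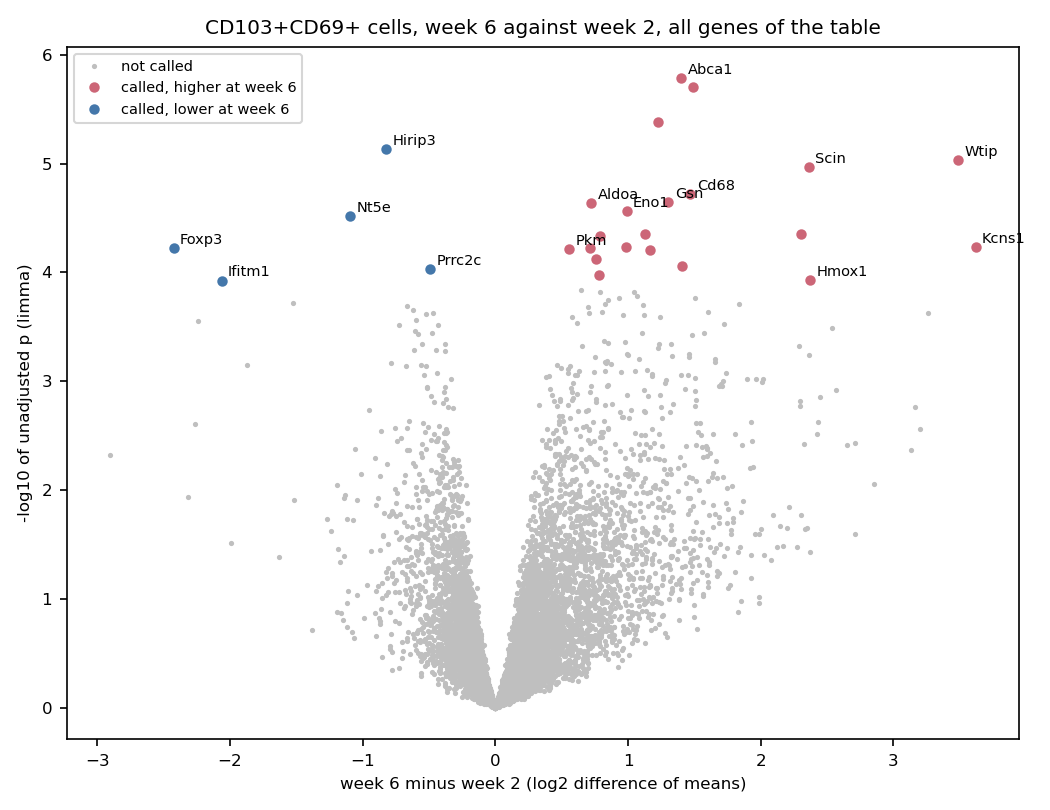
Each point is 1 of 10560 genes, with the week 6 minus week 2 log2 difference in CD103+CD69+ cells on the x axis and the -log10 of the unadjusted limma p on the y axis. The 21 red points were called higher and the 5 blue points lower, and Kcns1 and Wtip lie farthest to the right.

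Several of the called genes encode proteins of lysosomes or of cholesterol export; they were put together after their values were seen, and no list of lysosomal genes was examined. Abca1, which encodes a membrane pump that exports cholesterol, stood at 12.00, 11.88, 12.38 and 11.74 in the 4 week 2 libraries, 12.40, 12.84 and 11.95 at week 4, and 13.37, 13.45 and 13.39 at week 6. All 3 week 6 values lay above every earlier value. Abca1 (chromosome 4, 53030787 to 53159895, GRCm38) rose by 1.40 (SE 0.21, adjusted p = 0.0104), and within the 3 runs of codes the differences were 1.49, 1.07 and 1.65. Of the cholesterol list, Abca1 was the called gene of 20 (0.199% of all genes were called higher), and 14 of the 20 had differences below 0.

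Cd68 encodes a lysosomal membrane protein used as a macrophage marker, although other leukocytes also make it. It was 11.22, 11.03, 11.66 and 11.22 at week 2, 12.07, 12.32 and 11.28 at week 4, and 12.91, 12.69 and 12.65 at week 6. Week 4 was split, with one library at the level of week 2, and Cd68 rose by 1.47 over the whole interval (SE 0.27, adjusted p = 0.0272). Ctsd, which encodes the lysosomal protease cathepsin D, was 6.63, 6.46, 6.79 and 6.46 at week 2, 6.79, 6.64 and 6.86 at week 4, and 7.37, 7.30 and 7.24 at week 6. Ctsd rose by 0.72 (adjusted p = 0.0332), with every week 6 library above all others. Man2b1, the lysosomal mannosidase, rose by 0.76 (adjusted p = 0.0382), with week 6 libraries between 10.06 and 10.08 and week 2 libraries between 9.17 and 9.40. Ctsc, the protease that activates granzymes, rose by 0.79 (adjusted p = 0.0332) and was as high at week 4 (8.87, 8.54 and 8.91) as at week 6 (8.77, 8.78 and 8.88). Ctsc, Ctsd and Man2b1, and later Dst, Prkcd, St3gal3 and BX537302.1, are named because they were called and were chosen after their values were seen.

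The list of macrophage and other myeloid markers holds 22 genes, 12 of them in the table. All 12 had differences above 0, with a median of 0.96 against 0.06 for all genes; 1 of the 12 was called (Cd68; 0.199% of all genes were called higher), and 8 were higher without overlap (16.8% of all genes were). Lyz2, the lysozyme of macrophages and neutrophils, differed by 1.18 (adjusted p = 0.133), Apoe, an apolipoprotein that macrophages secrete, by 1.28 (adjusted p = 0.0862), and Csf1r, the macrophage growth factor receptor, by 0.92 (adjusted p = 0.314); these 3 were chosen after their values were seen. A score per library, the mean of the centred values of the list, was -0.54, -0.62, 0.09 and -0.99 at week 2, 0.49, 0.50 and -0.24 at week 4, and 0.36, 0.20 and 0.77 at week 6. Its lowest week 6 library stood only slightly above its highest week 2 library, and the list's median difference within the 3 runs was 0.845, 0.273 and 1.74. Abca1, Cd68, Ctsd, Hmox1 and Gsn are expressed strongly by macrophages, and the part of the myeloid markers in their rise was not tested. Some other lists of non-T cells also had medians above that of all genes between weeks 2 and 6, with 0 calls by limma. These were 0.988 over 6 stroma and endothelium genes, 0.847 over 5 B cell genes and 0.692 over 3 erythroid and platelet genes. The epithelial list had a median of -0.03, with 5 of its 7 measured genes below 0. Within the 3 runs, the medians were 0.656, 0.65 and 0.303 for the stroma and endothelium list. They were 0.635, -0.0532 and 1.54 for B cell genes, and 0.723, -0.839 and 1.57 for erythroid and platelet genes. The stroma and endothelium score was -0.15 to 0.28 at week 2 and 0.47 to 0.76 at week 6, and the B cell score -0.82 to -0.05 and 0.01 to 0.53, without overlap, while the erythroid and platelet score was -0.81 to 1.24 and 0.84 to 1.32. Their part in the differences was not tested. In bulk libraries, fewer or more cells of a type and less or more RNA per cell cannot be told apart, and since the scale has no level of 0, absence of a marker cannot be read from it. Of the T-cell identity genes, 0 of 16 were called by limma, and the median difference was -0.01; Cd8a differed by -0.02 (adjusted p = 0.977) and Cd8b1 by 0.01 (adjusted p = 0.997), both signs changing under other settings.

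**Figure D2:**
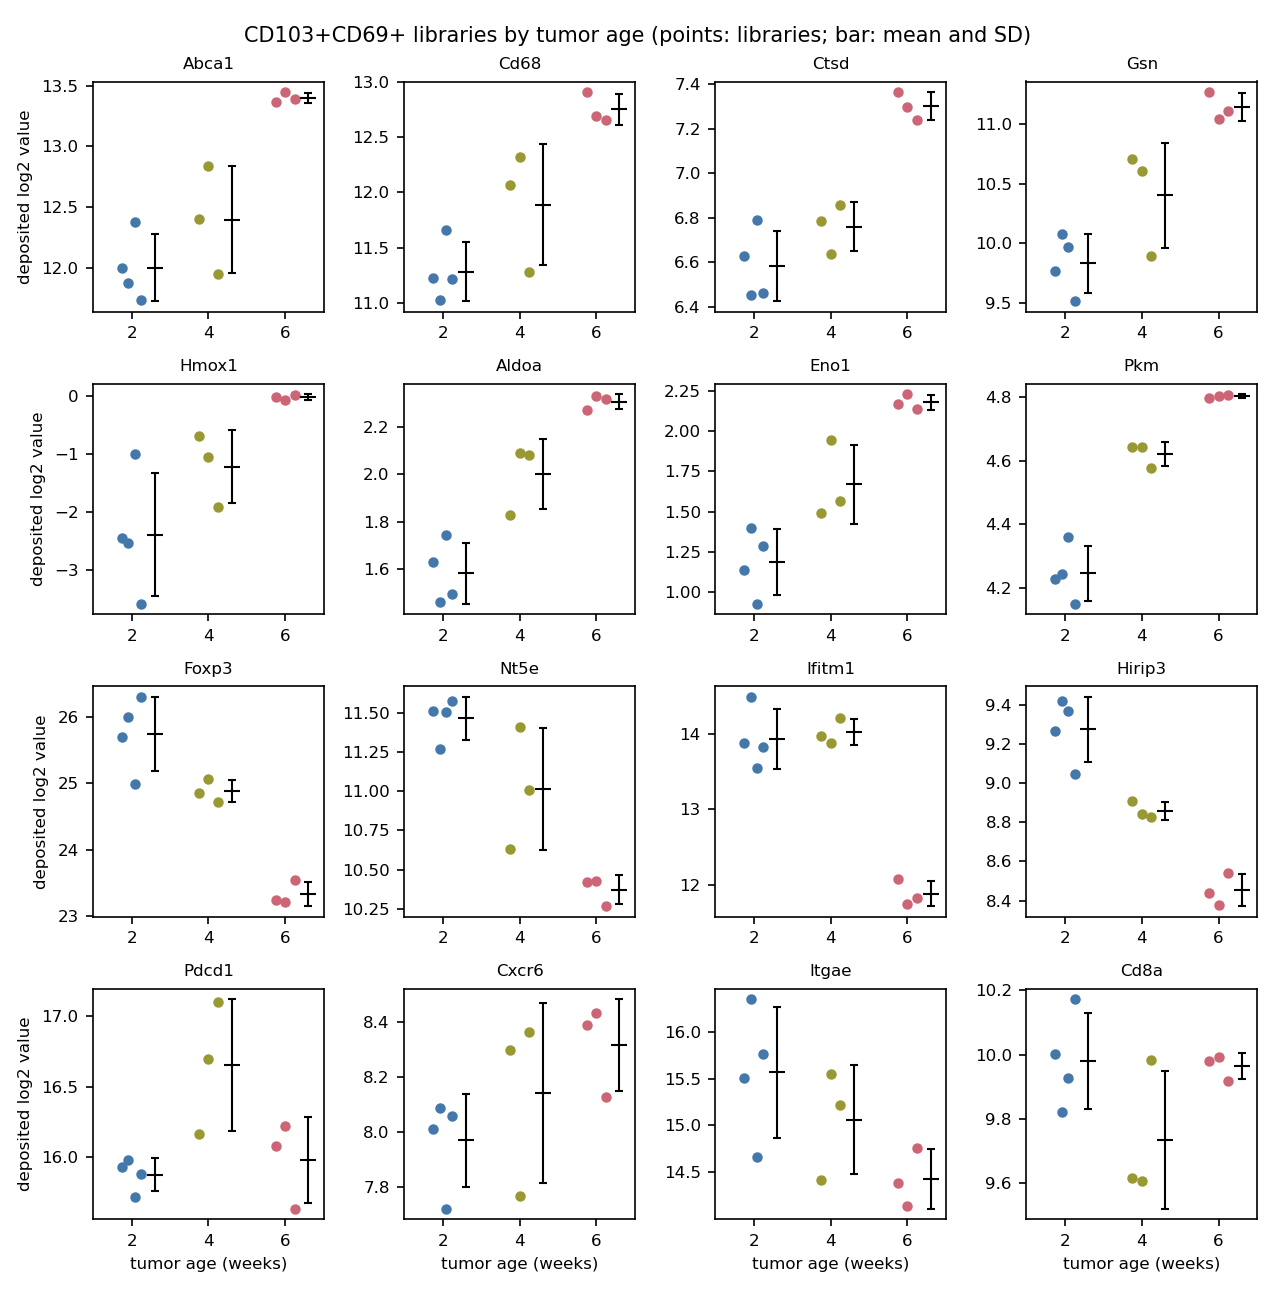
Deposited log2 values (y axis, a separate range for each gene) of 16 genes against tumor age in weeks (x axis); each point is 1 CD103+CD69+ library, and bars give the mean and SD of the 4, 3 and 3 libraries. For Abca1, Cd68, Ctsd, Gsn, Hmox1, Aldoa, Eno1 and Pkm the week 6 points lie above all others, for Foxp3, Nt5e, Ifitm1 and Hirip3 below all others, and for Pdcd1 and Cd8a the weeks overlap.

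The called glycolytic enzymes belong to the list of glycolysis and hypoxia genes. Aldoa encodes aldolase A, which splits fructose bisphosphate; it was 1.63, 1.46, 1.74 and 1.49 at week 2, 1.83, 2.09 and 2.08 at week 4, and 2.27, 2.33 and 2.32 at week 6. The 3 ages did not overlap, and Aldoa rose by 0.72 from week 2 to week 6 (SE 0.13, adjusted p = 0.0272). Eno1, which encodes enolase 1, was 1.14, 1.40, 0.93 and 1.29 at week 2, 1.49, 1.95 and 1.57 at week 4, and 2.17, 2.23 and 2.14 at week 6. Eno1 rose by 0.99 (SE 0.19, adjusted p = 0.0289), and it lost its call after quantile normalization with the reduced degrees of freedom (adjusted p = 0.0684). Pkm, the pyruvate kinase that makes ATP and pyruvate at the end of the pathway, was 4.23, 4.24, 4.36 and 4.15 at week 2, 4.64, 4.64 and 4.58 at week 4, and 4.80, 4.81 and 4.81 at week 6. The ages again did not overlap, and Pkm rose by 0.56 (SE 0.11, adjusted p = 0.0332). Of the 26 genes of the glycolysis and hypoxia list, all in the table, these 3 were called higher and 0 lower, beside 0.199% of all genes called higher; 25 had differences above 0, 14 were higher without overlap (16.8% of all genes were), and the median was 0.43. That median was 0.345 after quantile normalization and 0.467, 0.459 and 0.49 within the 3 runs of codes. The triose phosphate isomerase gene Tpi1 differed by 0.79 (adjusted p = 0.0541), Pgk1, the phosphoglycerate kinase, by 0.82 (adjusted p = 0.104), Ldha, which makes lactate, by 0.43 (adjusted p = 0.137) and Hk1, a hexokinase and the one member below 0, by -0.09 (adjusted p = 0.674); these 4 were chosen after their values were seen. The 3 calls became 0 in the fits without week 2 replicate 1 or without any one week 6 library, while the median stayed between 0.384 and 0.446 in the fits that left out a library. The list score was -0.26, -0.26, -0.22 and -0.27 in the week 2 libraries, 0.11, 0.25 and 0.09 at week 4, and 0.20, 0.22 and 0.14 at week 6. The step lay between weeks 2 and 4, and the scores of weeks 4 and 6 overlapped.

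Other rises were scattered over functions. Hmox1, the haem-degrading enzyme induced by oxidative stress, was -2.443, -2.534, -1.004 and -3.584 at week 2, -0.69, -1.05 and -1.92 at week 4, and -0.01, -0.07 and 0.02 at week 6. The week 2 libraries of Hmox1 were widely spread and the week 6 ones close together, and the rise was 2.37 (SE 0.50, adjusted p = 0.0483).

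A pair of actin regulators of one family rose together: Scin, which encodes scinderin, by 2.36 (adjusted p = 0.0189) and Gsn, which encodes gelsolin, by 1.30 (adjusted p = 0.0272). Scin was 1.23, 1.87, 0.58 and 1.81 at week 2, 2.12, 1.93 and 1.99 at week 4, and 3.62, 3.85 and 3.74 at week 6. The largest rises were those of Kcns1, a modulatory potassium channel subunit, by 3.62 (SE 0.72, adjusted p = 0.0332), and Wtip, a LIM-domain protein of cell junctions, by 3.49 (SE 0.60, adjusted p = 0.0189). Wtip was 15.09, 14.50, 15.87 and 14.67 at week 2, 15.69, 14.38 and 15.61 at week 4, and 18.71, 18.98 and 17.88 at week 6, so its step lay after week 4. Kcns1 at week 2 ranged from 18.11 to 21.52, and it lost its call after quantile normalization with the reduced degrees of freedom (adjusted p = 0.0684). Slc16a5, a monocarboxylate transporter family member, rose by 2.30 (adjusted p = 0.0332), Mamdc4 by 1.41 (adjusted p = 0.0418), the unnamed gene model BX537302.1 by 1.22 (adjusted p = 0.0145), the cytoskeletal linker gene Dst by 1.16 (adjusted p = 0.0332), the sialyltransferase gene St3gal3 by 0.99 (adjusted p = 0.0332) and Prkcd, which encodes protein kinase C delta, by 0.79 (adjusted p = 0.0469). Prkcd lost its call after quantile normalization with the reduced degrees of freedom (adjusted p = 0.189).

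The 5 genes that fell included regulators of the immune response. Foxp3, the transcription factor that defines regulatory T cells and is made by some activated CD8 T cells, was 25.707, 25.996, 24.992 and 26.300 at week 2, 24.86, 25.06 and 24.72 at week 4, and 23.24, 23.21 and 23.53 at week 6. The week 6 libraries were the lowest 3 of the 10, and Foxp3 (chromosome X, 7573644 to 7595245) fell by 2.42 (SE 0.48, adjusted p = 0.0332). In the list of CD4 T cell and regulatory T cell markers, 1 of 7 genes in the table was called (Foxp3; 0.0473% of all genes were called lower) and the median was -0.04; Cd4, the co-receptor of helper T cells, differed by 1.17 (adjusted p = 0.223), and Il2ra, the interleukin-2 receptor alpha chain, differed by -0.95 (adjusted p = 0.109). Nt5e encodes CD73, the surface enzyme that makes adenosine from AMP and a marker in the inhibitory receptor list; it was 11.51, 11.27, 11.51 and 11.58 at week 2, 10.63, 11.41 and 11.01 at week 4, and 10.42, 10.43 and 10.27 at week 6. Nt5e fell by 1.09 (SE 0.21, adjusted p = 0.0291). Ifitm1, an interferon-induced membrane protein that blocks virus entry, was 13.88, 14.50, 13.55 and 13.83 at week 2, 13.97, 13.89 and 14.22 at week 4, and 12.07, 11.75 and 11.82 at week 6. Its step lay after week 4, and Ifitm1 fell by 2.06 (SE 0.44, adjusted p = 0.0483). Hirip3, a protein that interacts with the histone chaperone HIRA, fell by 0.82 (adjusted p = 0.0189), and Prrc2c by 0.49 (adjusted p = 0.0425). The next gene by p in this direction, Rgs16, which damps G-protein signals, differed by -1.53 (adjusted p = 0.0541); the others were Dnaja1, Arid1a, Hivep2 and Pml, none of them called.

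The programs that define residency and exhaustion gave few calls between weeks 2 and 6. Pdcd1, which encodes PD-1, was 15.94, 15.98, 15.72 and 15.88 at week 2, 16.17, 16.70 and 17.10 at week 4, and 16.08, 16.22 and 15.64 at week 6. Weeks 2 and 6 overlapped, and Pdcd1 differed by 0.10 (adjusted p = 0.930, 95% interval -0.57 to 0.78), a sign that turned after quantile normalization. Cxcr6 differed by 0.35 (adjusted p = 0.491, 95% interval -0.08 to 0.77), with 8.01, 8.09, 7.72 and 8.06 at week 2 and 8.39, 8.43 and 8.13 at week 6. Both intervals include differences in either direction, so neither gene was shown to stay the same. Of the genes behind the sort, Itgae differed by -1.14 (adjusted p = 0.350, 95% interval -2.22 to -0.05) and Cd69 by -0.46 (adjusted p = 0.604), the sort itself having used the proteins. Itgae at week 6 was 14.39, 14.14 and 14.76 and at week 2 it was 15.51, 16.34, 14.66 and 15.76, so one week 2 library lay within the week 6 range.

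Among inhibitory receptors, 1 of 14 measured genes was called (Nt5e, lower, beside 0.0473% of all genes called lower), and the median was -0.15. Without overlap, 6 of the 14 were lower (9.6% of all genes) and 0 higher (16.8%). Of the 14 exhaustion transcription factors 0 were called by limma, with a median of -0.17 and 7 not overlapping between the weeks, 3 higher (16.8% of all genes) and 4 lower (9.6%). Of 26 resident memory genes 0 were called, with a median of -0.19 and with Isg20 and Rgs1 having the smallest p. Without overlap, 7 of the 26 were lower (9.6% of all genes) and 4 higher (16.8%). The 18 measured genes of circulating memory gave 0 calls and a median of -0.31. Without overlap, 9 of the 18 were lower (9.6% of all genes) and 5 higher (16.8%). The smallest p belonged to S1pr5, a receptor for exit from tissue, which differed by 2.45 (adjusted p = 0.0974). Cytotoxic genes gave 0 calls of 16 and a median of 0.55, which was 0.797 and 0.715 within 2 runs of codes and -0.15 within the third. Gzma, which encodes granzyme A, was -5.42, -5.57, -5.68 and -4.72 at week 2, -3.03, -3.48 and -3.21 at week 4, and -3.75, -3.72 and -3.62 at week 6. Its 3 ages did not overlap; Gzma differed by 1.65 from week 2 to week 6 (adjusted p = 0.0788) and rose by 2.11 from week 2 to week 4 (adjusted p = 0.0152, and up to 0.0709 without week 4 replicate 1 or 3).

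Of 33 measured interferon-stimulated genes, 32 had differences below 0, with a median of -0.40, and 0 were called by limma. Without overlap, 18 were lower, beside 9.6% of all genes. The list score was 0.19, 0.43, 0.04 and 0.18 in the week 2 libraries, -0.33, 0.15 and -0.09 at week 4, and -0.19, -0.29 and -0.10 at week 6. Week 6 lay below week 2, and week 4 overlapped both. Immediate-early genes, which respond within minutes to receptor signals or handling, had differences below 0 in 18 of 20, a median of -0.44 and 0 calls. Proliferation genes were below 0 in 31 of 37, with a median of -0.18 and 0 calls, but the median was 0.0538 within one of the 3 runs. For scale, 1401 of all 10560 genes had an unadjusted p under 0.05 in this comparison, 984 of them higher at week 6 and 417 lower.

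**Figure D3:**
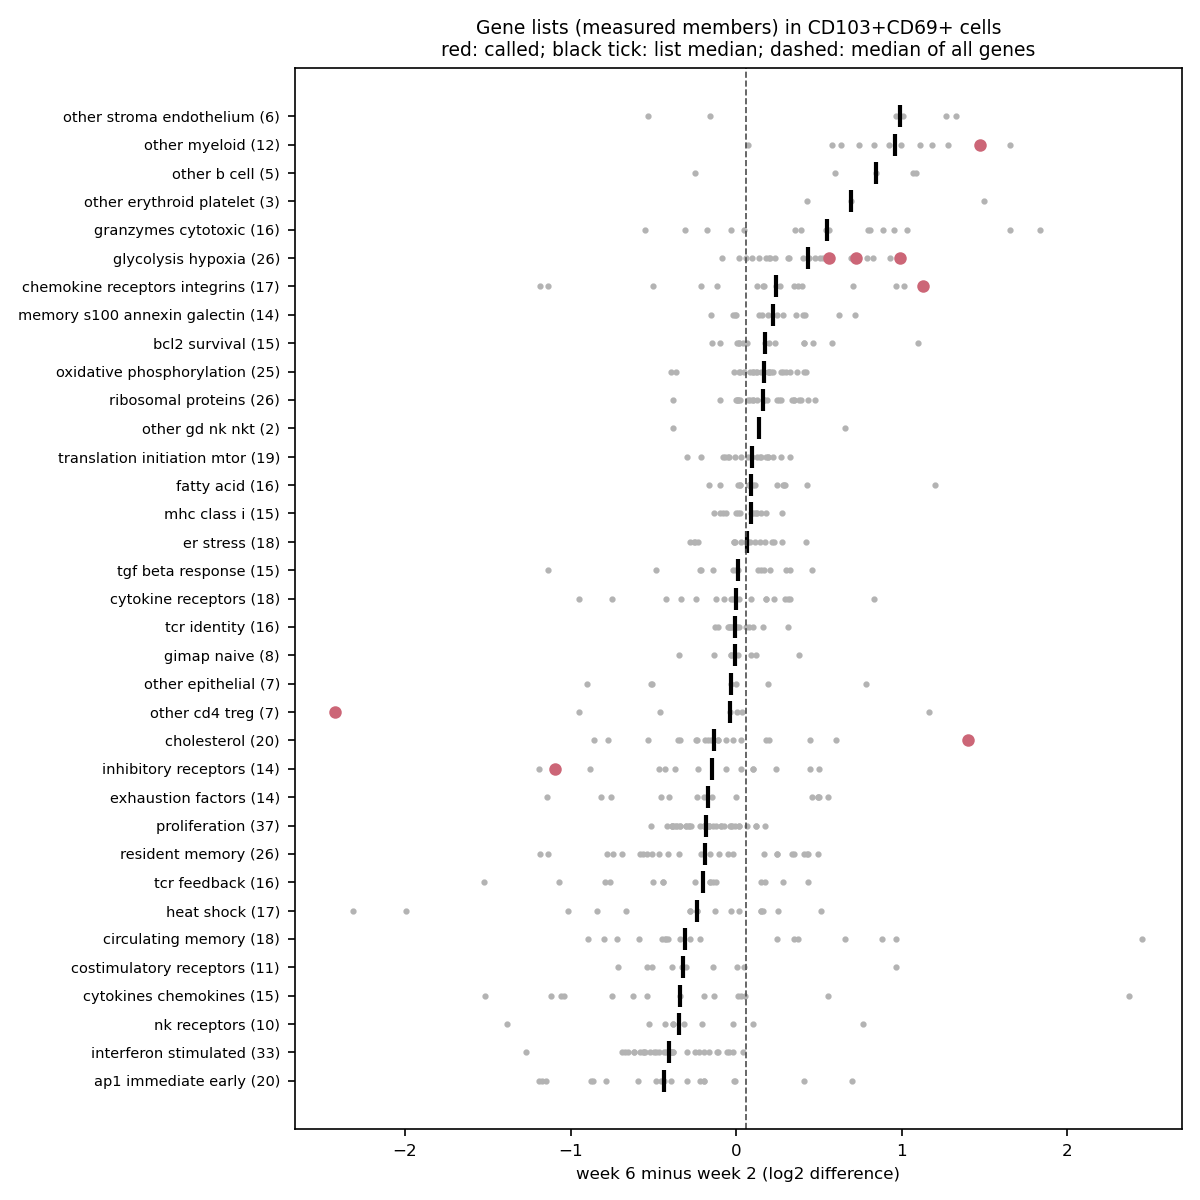
Week 6 minus week 2 log2 differences (x axis) of the measured genes of 35 lists (rows, number of measured genes in brackets), sorted by median; red points are called genes, black ticks list medians and the dashed line the median of all genes, 0.06. Glycolysis holds 3 red points, and the interferon and immediate-early lists have the lowest medians without a red point.

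More genes were called in the comparisons that involve week 4 than between weeks 2 and 6. From week 2 to week 4, 88 genes were called (0.833%), 63 higher (0.597%) and 25 lower (0.237%); from week 4 to week 6, 137 were called (1.3%), 82 higher (0.777%) and 55 lower (0.521%). After quantile normalization the splits became 376 higher and 282 lower, and 297 higher and 468 lower. With the degrees of freedom reduced as before they were 68 and 15, and 40 and 85. Both comparisons use the same week 4 libraries, so a gene that was high in these 3 libraries appears in both, and their values are given side by side without an overlap.

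Several genes stood high at week 4 alone. Fosl2, an AP-1 transcription factor, was 9.84, 9.46, 9.88 and 9.80 at week 2, 11.32, 11.88 and 11.98 at week 4, and 9.57, 9.51 and 9.57 at week 6. It rose by 1.98 to week 4 (adjusted p = 0.000148) and fell by 2.18 to week 6 (adjusted p = 0.000285). Uap1, which makes UDP-N-acetylglucosamine, rose by 1.08 and fell by 1.02. Nr4a3, a nuclear receptor induced by T cell receptor signals, was 7.31, 7.19, 7.25 and 7.28 at week 2, 8.48, 8.78 and 8.53 at week 4, and 7.10, 7.12 and 6.84 at week 6. Nr4a3 rose by 1.34 (adjusted p = 0.0038) and fell by 1.58 (adjusted p = 0.0027), and its relative Nr4a1 fell by 2.35 from week 4 to week 6 (adjusted p = 0.0117). Crem, a cAMP-responsive repressor, and Nr4a3 were chosen after their values were seen; Crem rose by 1.82 and fell by 1.75. Fosl2, Uap1, Nr4a3 and Crem kept both calls in each fit that left out a library, 7 for the rise and 6 for the fall.

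Heat shock genes fell from week 4 to week 6 in 8 of 17 members, beside 0.521% of all genes called lower, and rose from week 2 to week 4 in 2. Hsph1, a chaperone of the HSP110 family, was 6.32, 6.61, 6.04 and 6.25 at week 2, 7.07, 7.93 and 7.74 at week 4, and 5.44, 5.33 and 5.10 at week 6, and it fell by 2.29 from week 4 to week 6 (adjusted p = 0.0035). Dnaja1, an HSP40 co-chaperone, fell by 1.13 (adjusted p = 0.0012) and Hspa1a, the inducible HSP70, by 3.73 (adjusted p = 0.048). Hspa1a and Hspa1b are near-identical copies, so their reads may be split between them, and the call of Hspa1a was lost whichever library was left out (adjusted p up to 0.123). The count of lower calls in the list was 4 or 5 when a library was left out and 5 with the run of codes as a term. The heat shock score was -0.06, 0.09, -0.12 and -0.21 at week 2, 0.35, 0.72 and 0.64 at week 4, and -0.42, -0.42 and -0.57 at week 6. The 3 ages did not overlap, with week 4 highest. From week 4 to week 6 Ctla4, an inhibitory receptor, fell by 2.08 (adjusted p = 0.0211). From week 2 to week 4 Cxcr4, the receptor for CXCL12, rose by 1.89 (adjusted p = 0.0025), Cdkn1a, the cell cycle inhibitor p21, by 1.82 (adjusted p = 0.0077) and Zeb2, a transcription factor of effector cells, by 1.20 (adjusted p = 0.018), while Cxcr3, the receptor for CXCL9 and CXCL10, fell by 0.90 (adjusted p = 0.0346). Ctla4 lost its call without week 4 replicate 3, week 6 replicate 1 or week 6 replicate 3 (adjusted p up to 0.0731), Zeb2 without week 4 replicate 1 or 2 (up to 0.0786) and Cxcr3 in 5 of 7 leave-outs (up to 0.171). Hspa1a, Ctla4, Cxcr4 and Cxcr3 were chosen after their values were seen.

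Genes of other cells moved with the week 4 comparison too. The stroma and endothelium score was lower at week 4 (-0.70 to -0.54) than at week 2 (-0.15 to 0.28) and higher at week 6 (0.47 to 0.76), over 6 of 17 markers in the table. Col1a2, a fibroblast collagen, rose by 2.60 from week 4 to week 6 (adjusted p = 0.014) and Col9a2, a cartilage collagen, by 3.83 (adjusted p = 0.0012). Hba-a2, a haemoglobin gene of red cells, rose by 4.89 (adjusted p = 0.023) and was chosen after its values were seen; 2 of the 3 erythroid and platelet genes in the table were called higher, beside 0.777% of all genes. Hba-a2 lost its call in 5 of 6 leave-outs and Col1a2 without week 4 replicate 2 or week 6 replicate 1, while Col9a2 kept it in all 6. The part of these cells in the week 4 differences was not tested.

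**Figure D4:**
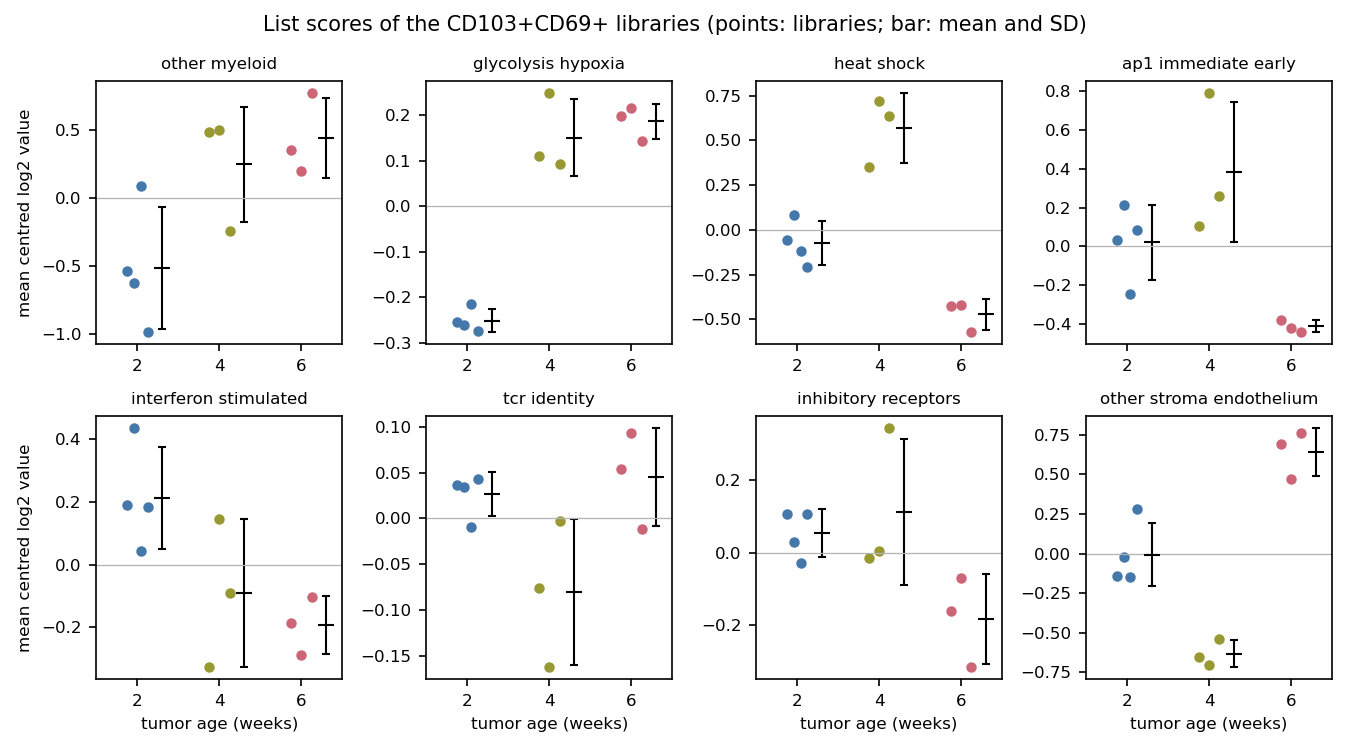
Scores of 8 gene lists (y axis, mean of gene values centred over the libraries, log2) against tumor age in weeks (x axis); points are CD103+CD69+ libraries, and bars give mean and SD of 4, 3 and 3 libraries. Glycolysis steps up between weeks 2 and 4, heat shock peaks at week 4, and the stroma and endothelium score is lowest at week 4 and highest at week 6.

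The same ages were also sorted for CD103-CD69+ cells (3 libraries each at weeks 2 and 6) and for CD103-CD69- cells (3 and 2). All 26 genes differed in the same direction in CD103-CD69+ cells and 25 of 26 in CD103-CD69- cells, the exception being Ctsc at -0.04, beside 68.8% and 64.1% of all genes. In CD103-CD69+ cells 6 of the 26 were called, in a comparison that called 0.644% of all genes, 0.492% as higher and 0.152% as lower; the 6 included Abca1 by 1.47 (adjusted p = 0.00864), Cd68 by 1.35, Slc16a5 by 2.26, Dst by 1.60 and Nt5e by -0.95. In CD103-CD69- cells 2 of the 26 were called, in a comparison that called 0.72% of all genes and 0.53% as higher: Aldoa by 0.89 (adjusted p = 0.0117) and Pkm by 0.68 (adjusted p = 0.0212). Leaving out single libraries of these subsets, Abca1 and Dst kept their calls in all 6 fits, Nt5e in 0 of 6, Cd68 in 1 of 6 and Slc16a5 in 2 of 6 (adjusted p up to 0.155), and Aldoa and Pkm lost theirs without either week 6 CD103-CD69- library (adjusted p up to 0.124 and 0.129), Pkm also without week 2 replicate 1 of that subset. The myeloid list moved in these subsets as well, with a median of 1.45 and 3 called genes (Lyz2, Apoe and Cd68) in CD103-CD69+ cells, and a median of 0.74 and 1 called gene (Lyz2) in CD103-CD69- cells. Lyz2 and Apoe kept their calls in all 6 leave-outs of CD103-CD69+ cells, and Lyz2 in 2 of 5 of CD103-CD69- cells, where it lost the call without week 2 replicate 3 or either week 6 library (adjusted p up to 0.153). In CD103-CD69+ and CD103-CD69- cells in turn, the glycolysis and hypoxia list had medians of 0.29 and 0.52, with 1 and 4 genes called higher. The interferon list had medians of -0.44 and -0.43, with 0 calls. Medians of the immediate-early list were -0.69 and -0.36, with 0 and 2 genes called lower (0.152% and 0.189% of all genes). Those of the stroma and endothelium list were 1.22 and 1.01, with 0 calls.

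No gene's change was shown to be particular to CD103+CD69+ cells. The test of the difference between subsets called 0 genes against CD103-CD69+ cells (limma, 281 at an unadjusted p under 0.05) and 0 against CD103-CD69- cells (576), and with plain degrees of freedom 4 and 46. Of the 26 genes, Wtip had the widest gaps: its rise exceeded that in CD103-CD69+ cells by 3.23 (unadjusted p = 0.00142, adjusted p = 1.00) and that in CD103-CD69- cells by 2.86 (unadjusted p = 0.00612, adjusted p = 0.805). Against CD103-CD69+ cells the smallest p belonged to Gpr183, an oxysterol receptor (difference 1.14), Pkp4 (-0.83) and Cnpy4 (-0.79), all with an adjusted p of 1.00. Against CD103-CD69- cells it belonged to Gcnt7 (1.87), Dram2 (1.64) and Nsmaf (0.67), all with an adjusted p of 0.694.

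**Figure D5:**
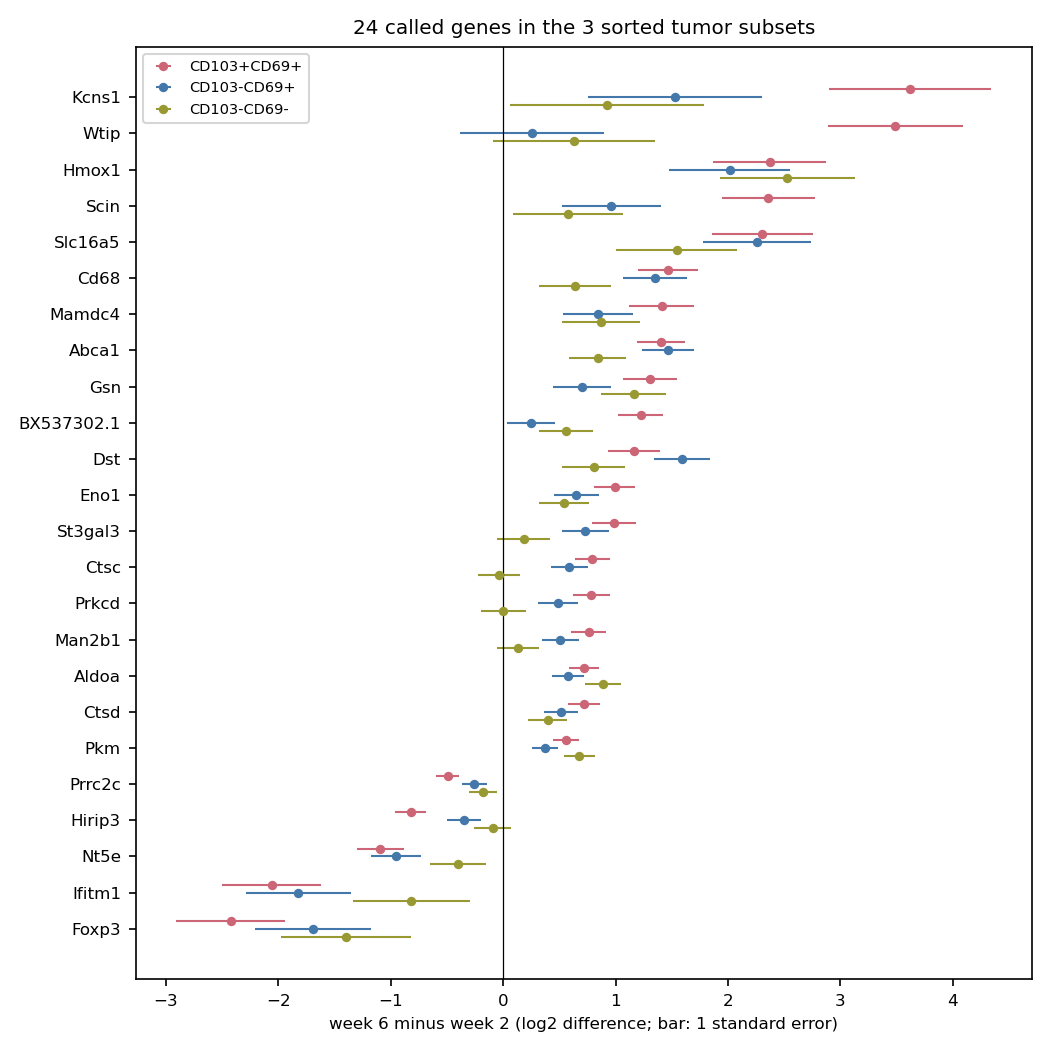
Week 6 minus week 2 log2 differences (x axis) of 24 of the 26 genes called in CD103+CD69+ cells, in 3 sorted tumor subsets; points are fitted differences and bars 1 standard error. The subsets point the same way for 23 of these genes, with the red CD103+CD69+ points of Wtip farthest from the others.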

How the data were processed

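QuantSeq 3' libraries of sorted CD8+ T cells were sequenced. The authors aligned to mm10, with HISAT2 and HTSeq named without versions in the submitters' processing notes, and deposited normalized values, read here as log2 from their range; the normalization method is not given in the sources used here. No counts were used, so depth is unknown; a second deposited table of treated tumors was not used here. Over all groups of the untreated table, residuals had rank 18 of 28 degrees of freedom. limma 3.58.1 (R 4.3.3, statmod 1.5.0, trend and robust options) was therefore fitted to group means of all 43 libraries. Residual degrees of freedom were multiplied, and variances divided, by 0.6429. This takes the lost directions to have held, on average, the same spread as those left, which the deposited values cannot show. The fit was also run on simulated data in which the lost directions left the group means untouched. Such data cannot show whether the deposited normalization altered differences between groups. Adjustment ran over all 10560 genes, with no filter, and an adjusted p below 0.05 was a call. Exact permutation of 4 against 3 libraries cannot go below 0.0571.

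Genes were named by rule: the 10 called genes with the largest rises and falls without overlap, then the smallest p in that direction; called members of each list, or its 2 smallest p; the sort markers, Pdcd1 and Cxcr6; and the 3 smallest p of each other contrast. Some genes that the rule names are not reported here. Members, lists and rules were chosen with earlier results of these data known. Positions are from GENCODE M21, promoters from RefSeq. Alternatives covered degrees of freedom, scaling, filter, trend, robust option, replicate block, run of codes, samples fitted and single libraries left out.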

Additional observations from a re-analysis of the deposited data

Results flagged for a closer look

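Of 137 values examined for a library far from the rest of its group of 4, 2 were, where chance gives about 1 in 20. Tagln, a smooth muscle and fibroblast gene, stood at 13.7 in week 2 replicate 4 and between 12.9 and 13 in the other week 2 CD103+CD69+ libraries. The score of the circulating memory list was 0.388 in week 2 replicate 2 and between -0.198 and -0.108 in the others.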

How the results depend on the processing

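Counts of calls are given in the order week 6 against 2, week 4 against 2 and week 6 against 4 in CD103+CD69+ cells (26, 88 and 137 as reported), week 6 against 2 in CD103-CD69+ and CD103-CD69- cells (68 and 76), and the differences of CD103+CD69+ cells from these 2 subsets (0 and 0). Plain degrees of freedom gave 739, 806, 941, 716, 745, 4 and 46. Quantile normalization, after which the residuals have full rank and no reduction applies, gave 783, 658, 765, 753, 845, 2 and 26. Fits of only the groups compared gave 1023, 511, 785, 336, 23, 0 and 17, and of only the 10 libraries 992, 909 and 1182, again without reduction. Median rescaling gave 85 for week 6 against 2 and the run of codes as a term 81, and 123 in CD103-CD69- cells. Among alternatives chosen after seeing the data, quantile normalization with the reduction kept gave 52 for week 6 against 2, and the 10 libraries with it gave 0, 57 and 65 (limma; 1699 genes at an unadjusted p under 0.05 for the first). Apart from the replicate block, given below, the other counts of fits to all libraries, including those with a filter, without trend and without the robust option, were within 1.5 times the reported ones. With a single library left out the counts ranged from 0 to 24, 36 to 80, 34 to 96, 12 to 97, 2 to 109, 0 to 0 and 0 to 2.

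Whether replicate numbers pair the samples was not settled. Deviations of same-numbered week 2 and week 6 libraries correlated over genes at -0.0817, 0.12 and 0.248, and those of differently numbered ones at -0.175 to 0.201. So few libraries cannot decide it, and the labels do not say what a replicate number marks. The replicate block gave 92, 269, 153 and 147 calls for week 6 against 2, week 6 against 4 and the 2 other subsets. With the replicate block, Cd8a differed by 0.0479 and Cd8b1 by -0.046. Cd8a turned positive without week 2 replicate 4 (0.0479) or week 6 replicate 3 (0.0065). Cd8b1 turned negative after either quantile setting (-0.0769), after median rescaling (-0.0459) and without week 2 replicate 4 (-0.046), week 6 replicate 1 (-0.0408) or week 6 replicate 2 (-0.0537). Pdcd1 turned negative after either quantile setting (-0.215) and without week 6 replicate 2 (-0.0194). Over all fits that left out a library the differences ran from -0.0693 to 0.0479 for Cd8a, -0.0537 to 0.1116 for Cd8b1 and -0.0194 to 0.2735 for Pdcd1. None of these 3 genes was called in the reported fit. The cause was not tested for these changes, beyond the lost reduction noted above. Depth cannot be read from the deposited values, and its part in the missed calls was not tested.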

Other observations

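The median difference of the 20 cholesterol genes in the table between weeks 2 and 6 was -0.13. Genes of oxidative phosphorylation gave 0 calls of 25 by limma and a median of 0.165, and ribosomal protein genes 0 of 26 and a median of 0.165, which was 0.0103 after quantile normalization. Cytokine and chemokine genes gave 0 calls of 15 and a median of -0.34. Csf1, the macrophage growth factor that T cells can secrete, fell by 1.57 from week 4 to week 6 (adjusted p = 0.029). Il4ra, the interleukin-4 receptor alpha chain, rose by 1.20 from week 2 to week 4 (adjusted p = 0.0038) and fell by 0.89 from week 4 to week 6 (adjusted p = 0.0395). Csf1 and Il4ra were chosen after their values were seen, and comparisons that involve week 4 share its 3 libraries. Whether the calls of Csf1 and Il4ra held with a library left out was not examined. In such fits the counts of calls were 36 to 80 for week 4 against 2 and 34 to 96 for week 6 against 4.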
